A study of Mus musculus with 16 samples.

Results

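The genes described here are 30 that make cholesterol, sense it or move it: 18 enzymes of the synthesis pathway from acetyl-CoA to cholesterol, the sterol-sensing genes Srebf2, Scap, Insig1 and Insig2, the sterol carrier Stard4, the uptake gene Npc1l1 and the esterifying gene Soat2, the efflux transporters Abcg5, Abcg8 and Abca1, and Nr1h3 and Mylip of the LXR branch. They were chosen by name from textbook roles in the pathway, with earlier results of these data known. All 30 were among the 54532 genes of the count table and passed the filter on low counts in every comparison. RNA was sequenced from 16 cultures of differentiated mouse jejunal enteroids, which are epithelial cultures grown from crypts, in 4 groups of 4 cultures. The question was how sterol genes differed when myosin Vb (MYO5B), a motor that carries vesicles to the brush border, was lost or mutated, and whether Compound-1, an agonist of the lysophosphatidic acid receptor LPAR5, moved them back.

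MYO5BΔIEC enteroids came from adult Vil1-CreERT2;Myo5b flox/flox mice, in which the villin promoter drives an inducible Cre in intestinal epithelium. MYO5B(G519R) enteroids carried the same Cre with 1 floxed and 1 G519R allele. Both were given 4-OH-tamoxifen at 1 µM for 24 h in culture, then differentiation medium lacking Wnt ligands and EGF. The MYO5BΔIEC cultures received PBS vehicle for 2 days, and those of the treated group received Compound-1 at 100 nM for 2 days. Control cultures have the genotype label Control and the treatment label None. The methods describe controls as flox/flox cultures with ethanol in place of tamoxifen, while a legend of the study calls them healthy littermates. Tamoxifen, Cre activity and MYO5B loss therefore cannot be told apart in any comparison with control. The cultures of a group came from separate mice according to the study.

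Cholesterol is built in the endoplasmic reticulum by a long chain of enzymes whose genes are switched on together by SREBP2, the product of Srebf2. When membrane sterol is low, SCAP escorts SREBP2 to the Golgi for cleavage, and when sterol is high the INSIG proteins hold both in the endoplasmic reticulum. The enterocytes of the jejunum also take up dietary and biliary cholesterol through NPC1L1 at the brush border, esterify it with SOAT2, return it to the lumen through the ABCG5 and ABCG8 pair and send it to the blood side through ABCA1, the last 3 being classical targets of the oxysterol receptor LXR.

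Promoter sequences are printed for Srebf2 and Npc1l1, which were called in both models below, and for Hmgcs1, which holds an exact sterol regulatory element. The shared interval of Abcg5 and Abcg8 is also printed. The sites within the stretches shown can thus be seen. RefSeq promoter windows on GRCm38.p6, from 250 bases before to 50 bases after a start, were matched by symbol for 25 of the 30 genes, in 33 windows. No window was matched for Fdps, Fdft1, Stard4, Soat2 or Sqle. The sterol regulatory element searched was TCACNCCAC on both strands, the NF-Y box CCAAT, the Sp1 box GGGCGG, and the LXR element as AGGTCA repeated after 4 bases. The stretches shown are those before Srebf2 (chr15:82147019-82147180, + strand, ending where the first annotated exon begins), Hmgcs1 (chr13:119690101-119690350, + strand), Npc1l1 (chr11:6230246-6230495, − strand) and the interval between the divergent starts of Abcg5 and Abcg8 (chr17:84683012-84683120, + strand), each written 5′ to 3′ with matches of the first 3 motifs on either strand in capitals, none of which overlap one another. They were chosen after the values were seen. For Srebf2, Sp1 boxes at -79, -52 and -34 from the RefSeq start lay past the end of the stretch shown.
Srebf2: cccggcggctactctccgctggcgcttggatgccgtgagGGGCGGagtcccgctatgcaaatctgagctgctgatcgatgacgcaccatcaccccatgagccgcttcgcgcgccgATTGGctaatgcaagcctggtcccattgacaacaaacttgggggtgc
Hmgcs1: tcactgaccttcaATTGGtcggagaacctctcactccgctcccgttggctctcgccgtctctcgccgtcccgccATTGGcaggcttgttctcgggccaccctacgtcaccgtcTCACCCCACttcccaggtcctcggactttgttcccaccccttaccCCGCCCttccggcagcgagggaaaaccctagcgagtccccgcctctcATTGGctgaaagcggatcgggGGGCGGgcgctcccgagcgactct
Npc1l1: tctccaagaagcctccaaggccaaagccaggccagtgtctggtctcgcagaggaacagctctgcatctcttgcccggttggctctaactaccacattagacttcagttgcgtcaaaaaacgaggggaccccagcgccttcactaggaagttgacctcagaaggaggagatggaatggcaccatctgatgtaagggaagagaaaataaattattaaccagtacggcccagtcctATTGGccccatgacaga
Abcg5 to Abcg8: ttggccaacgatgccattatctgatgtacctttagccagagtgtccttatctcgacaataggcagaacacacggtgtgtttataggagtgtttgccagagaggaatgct

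Of the genes with a window, Hmgcs1 alone held an exact match of the sterol regulatory element, starting 137 bases before its start. Of the 27025 genes with a window, 1.44% held one. The NF-Y box was in 21 of the 25 genes, among them 14 of the 15 synthesis enzymes with a window, and in 41.1% of all genes with a window. The Sp1 box was in 20 of the 25 genes and 14 of the 15 enzymes, against 38.2% of all genes. The LXR element was in none of the 25 genes and in 0.0148% of all genes. The exact repeat is so rare that its absence from 25 genes was likely for any choice of genes. Imperfect copies of the LXR and sterol regulatory elements were not searched. The absence of an exact match therefore does not show that a gene lacks the element. The 109 bases that separate the starts of Abcg5 and Abcg8 held none of the 3 sites marked in capitals. These matches are letters only, and binding was not measured.

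Between 27804968 and 40101729 reads were counted per culture. Levels are in CPM, counts relative to library sizes scaled by edgeR's TMM method. A count of 0 would allow a level of up to 0.106 CPM in control culture 4, the library with the smallest TMM-scaled size, counting error only. Myo5b itself was at 157.1 to 221.2 CPM in control and at 101.4 to 166.8 CPM in MYO5BΔIEC. MYO5B(G519R) cultures had 140.7 to 175.6 CPM and Compound-1-treated cultures 86.8 to 147.8 CPM. These counts sum the whole gene, including exons that recombination leaves in place, so they do not check the deletion. Markers of fibroblasts, immune cells and endothelium each summed to at most 1.51 CPM in any culture, while the enterocyte marker Vil1 and the crypt, goblet, Paneth and enteroendocrine markers were all measured.

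Control culture 1 stood apart from the other 3 controls in these genes. It was the lowest of the 4 controls for 17 of the 18 synthesis enzymes and for 40.2% of all 19000 genes ranked. Its 12 enterocyte markers summed to 3732 CPM, the lowest sum of any culture, with 16250 CPM as the highest control sum. Mitochondrially encoded genes took 6.41% of its counts and 9.07% to 10.4% of those of the other controls. The mutant and treated cultures had 3.79% to 6.63%, a range that holds control culture 1 and not the other controls. Deviations of control culture 1 from the mean level increased with gene length (Spearman rho 0.11 across genes, which are not independent replicates). So did those of most mutant cultures, whereas rho lay between -0.33 and -0.31 in the other controls. Fits without control culture 1 thus compare the mutants with the 3 controls that differ from them in both features. The length trend was not removed in those fits. What set this culture apart was not tested, and results that rest on it are given with and without it.

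**Figure D1:**
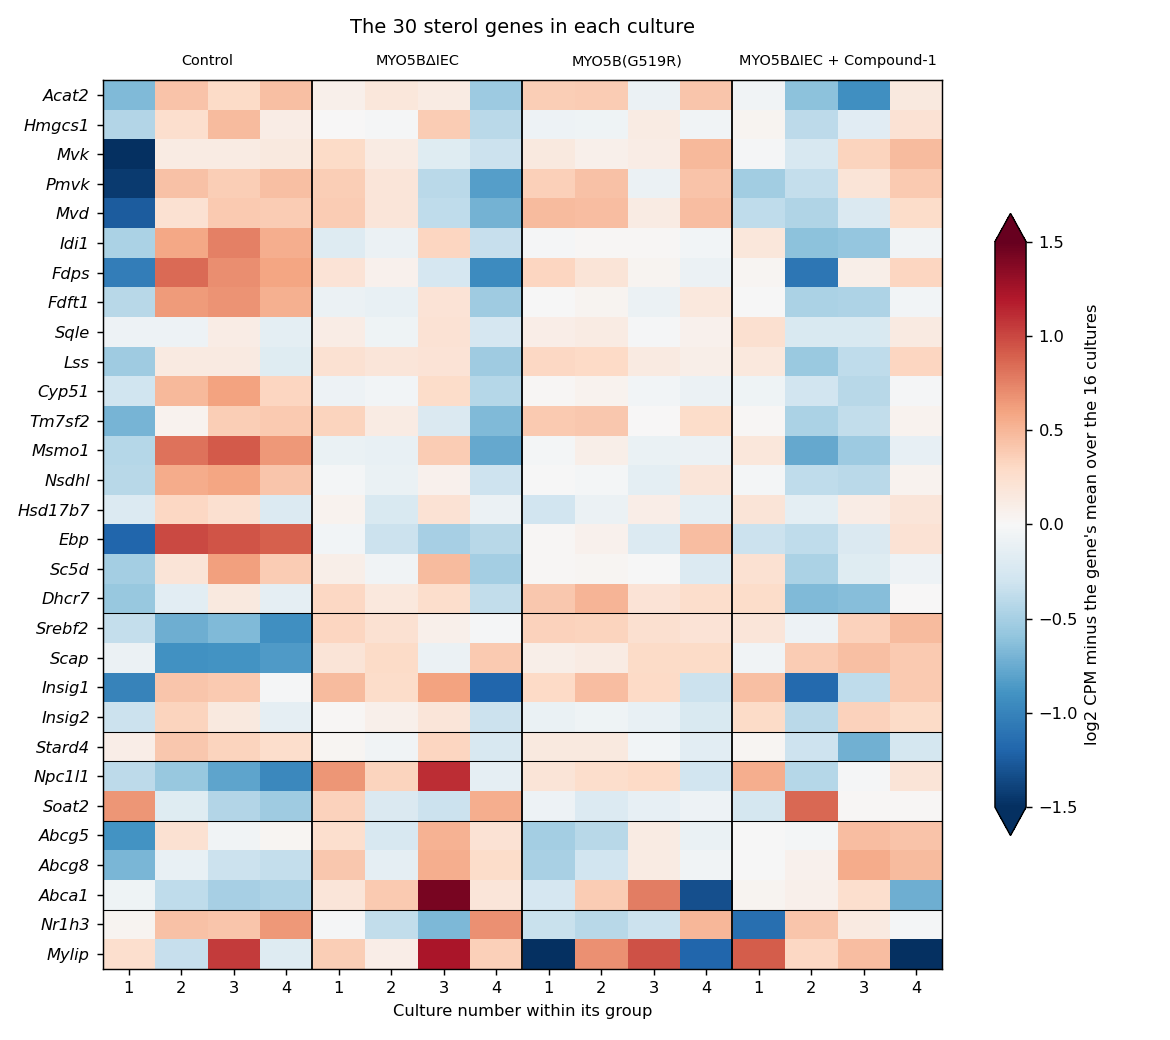
Heat map of the 30 genes (rows, in pathway order) in the 16 cultures (columns, 4 per group), coloured by log2 CPM minus the mean of that gene over all cultures. In the enzyme rows control culture 1 is mostly blue and control cultures 2 to 4 mostly red, and Srebf2, Scap and Npc1l1 are blue in controls 2 to 4 and mostly red in the mutants.

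Per gene length, the genes spanned a wide range in control enteroids. Levels between genes were compared in the deposited FPKM, which take gene length into account. Insig1 was the highest at 160 ± 60.1 FPKM (SD, n = 4), followed by the lanosterol demethylase gene Cyp51 at 129 ± 32.0, Hmgcs1 at 104 ± 25.9 and Msmo1 at 81.2 ± 28.1 FPKM. These 4 neighbours in the order overlapped within 1 SD. Srebf2 was at 29.3 ± 4.88 FPKM, Npc1l1 at 23.04 ± 3.99 and Scap, whose protein partners SREBP2, at 5.32 ± 1.64. The lowest were Fdps (4.13 ± 1.80), Abca1 (0.886 ± 0.125) and Mylip (0.109 ± 0.0517 FPKM). Mylip encodes the ubiquitin ligase by which LXR lowers lipoprotein receptors, and its transcript was barely detected. The level of Fdps is uncertain, since close copies of the gene may share its reads.

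In MYO5BΔIEC enteroids, 5 of the 30 genes rose and none fell against control. The genes that rose were the sterol sensor genes Srebf2 and Scap, the cholesterol importer gene Npc1l1, and the exporter genes Abcg8 and Abca1. None of the 18 synthesis enzymes passed the test. Across all 17951 genes tested in this comparison, 13.5% rose and 13.8% fell (edgeR quasi-likelihood test, Benjamini-Hochberg adjusted p under 0.05), so the share of sterol genes that rose, 5 of 30, is near that background. In MYO5B(G519R) enteroids 3 of the 30 rose, Srebf2, Scap and Npc1l1, and none fell, beside 13.1% higher and 13.7% lower among 17829 genes. Both comparisons use the same 4 control cultures. With control culture 1 left out, the same 5 genes rose in MYO5BΔIEC and 8 enzymes fell, beside backgrounds of 21.2% and 20.8%, and in MYO5B(G519R) 4 genes rose and 12 fell, beside 24.0% and 22.1%. The counts of 3, 5 and 8 of 30 are close to their backgrounds or below, and 12 of 30 is a larger share, a difference that was not tested.

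Srebf2 (ENSMUSG00000022463, chr15:82147181-82205379, + strand), which encodes the SREBP2 precursor, was at 256, 198, 208 and 174 CPM in the 4 control cultures. It was at 409, 385, 348 and 324 CPM in MYO5BΔIEC and at 416, 415, 389 and 379 CPM in MYO5B(G519R). Every mutant culture lay above every control culture. The rise was 0.76 on the log2 scale in MYO5BΔIEC (SE 0.15, edgeR adjusted p = 0.00597) and 0.85 in MYO5B(G519R) (SE 0.13, edgeR adjusted p = 0.00308). Without control culture 1, the highest control, the log2 changes were 0.86 and 0.99.

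Scap (ENSMUSG00000032485, chr9:110333288-110384950, + strand), the escort of SREBP2, was at 57.5 CPM in control culture 1 and at 32.7, 32.96 and 34.1 CPM in the other controls. MYO5BΔIEC cultures had 69.9, 75.0, 57.6 and 80.4 CPM and MYO5B(G519R) cultures 65.2, 66.8, 74.9 and 74.9 CPM. No mutant culture lay among the controls, although MYO5BΔIEC culture 3 exceeded control culture 1 by little. Scap rose by 0.80 on the log2 scale in MYO5BΔIEC (SE 0.20, edgeR adjusted p = 0.0133) and by 0.76 in MYO5B(G519R) (SE 0.18, edgeR adjusted p = 0.0138), and by 1.02 in each without control culture 1.

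Insig1 (ENSMUSG00000045294, chr5:28071363-28078662, + strand), which retains SCAP in the endoplasmic reticulum and is itself a target of SREBP2, was at 238, 632, 623 and 469 CPM in control. It was at 662, 577, 722 and 208 CPM in MYO5BΔIEC and at 583, 658, 585 and 382 CPM in MYO5B(G519R). The groups overlapped throughout, and a single culture was far below the rest in both control and MYO5BΔIEC. The log2 change was 0.09 (95% interval -0.77 to 0.95) in MYO5BΔIEC and 0.08 (-0.58 to 0.74) in MYO5B(G519R), intervals too wide to resolve a moderate difference. Insig2, the less sterol-responsive paralog, had log2 changes of -0.08 and -0.24, neither past the threshold, and passed in MYO5B(G519R) only without control culture 1 (-0.32, edgeR adjusted p = 0.0448).

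Npc1l1 (ENSMUSG00000020447, chr11:6211013-6230143, − strand), the brush border protein that imports cholesterol and the target of ezetimibe, was at 123, 109, 93.4 and 82.9 CPM in control. It was at 256, 205, 349 and 147 CPM in MYO5BΔIEC and at 185, 194, 200 and 133 CPM in MYO5B(G519R). All mutant cultures were above all controls, and MYO5BΔIEC spread the most. The rise was 1.18 on the log2 scale in MYO5BΔIEC (SE 0.25, edgeR adjusted p = 0.00687), the highest of the 30 genes, and 0.72 in MYO5B(G519R) (SE 0.17, edgeR adjusted p = 0.0123). The direct difference between the mutants, -0.45 for MYO5B(G519R) against MYO5BΔIEC (95% interval -0.97 to 0.07), did not pass.

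**Figure D2:**
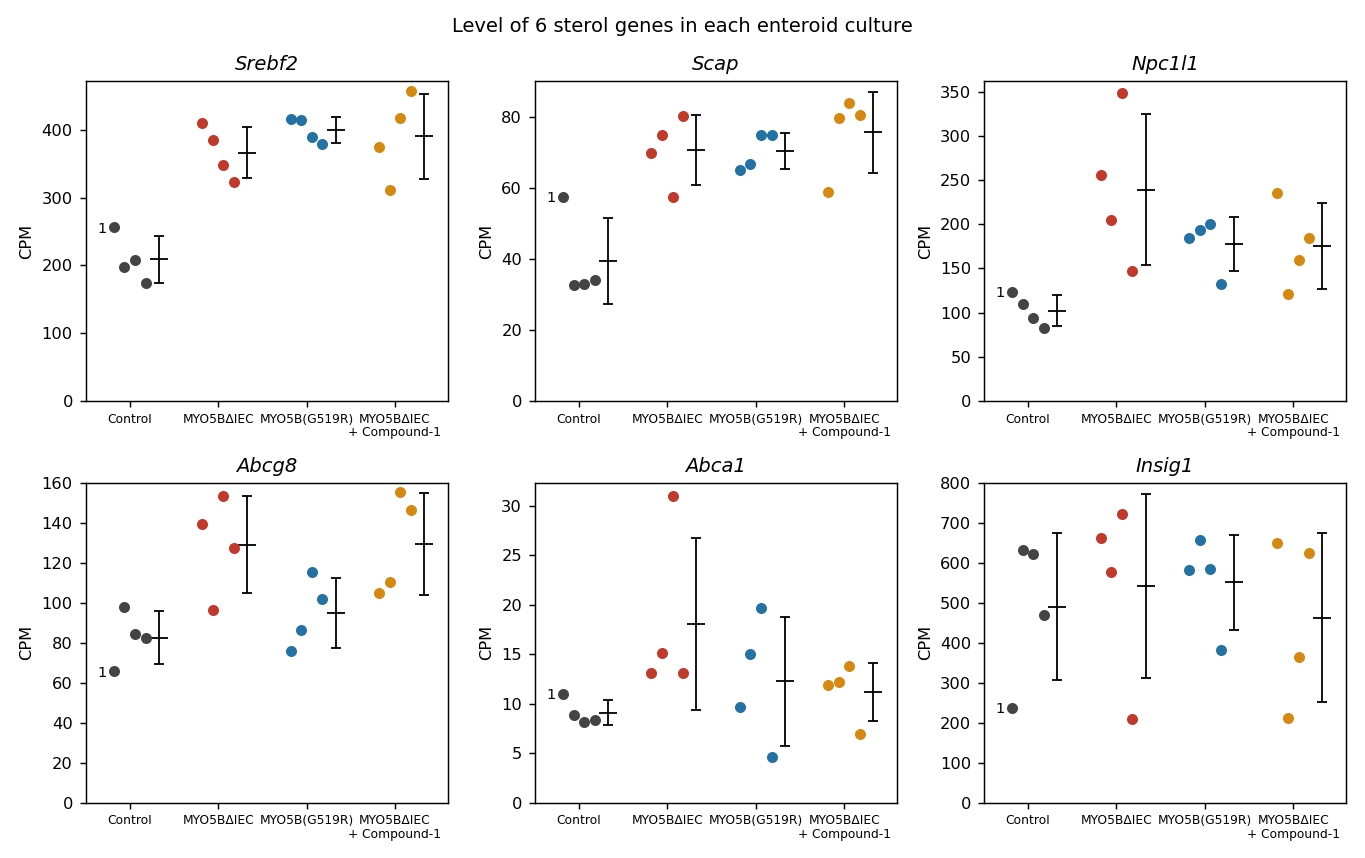
CPM of 6 genes in each culture (points, 4 per group) with the group mean and SD (bar beside the points), and control culture 1 numbered. Srebf2 and Npc1l1 are higher in every MYO5BΔIEC and MYO5B(G519R) culture than in every control, Scap narrowly so because of control culture 1, while Insig1 overlaps between all groups.

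Srebf2, Scap and Npc1l1 were called in both models under all 10 alternative analyses and with each of the 8 cultures of a comparison left out in turn. With the trend on gene length removed, their log2 changes were 0.61, 0.65 and 1.14 with MYO5B lost and 0.72, 0.64 and 0.67 with the mutant allele. Among all genes tested, the groups did not overlap for 26.5% (MYO5BΔIEC) and 27.1% (MYO5B(G519R)), and among the 30 sterol genes for 4 in each, a smaller share. Those 4 were Srebf2, Scap and Npc1l1 in both models, with Abca1 in MYO5BΔIEC and Dhcr7 in MYO5B(G519R).

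Since NPC1L1 belongs to enterocytes, marker levels are given beside it. The 12 enterocyte markers summed to 3732 to 16250 CPM in control and 7208 to 13913 CPM in MYO5BΔIEC. The sums were 6698 to 10232 CPM in MYO5B(G519R) and 6563 to 8842 CPM in treated cultures. Of the 12, 4 rose and none fell in MYO5BΔIEC, and 2 rose and 1 fell in MYO5B(G519R), beside the backgrounds of 13.5% and 13.8% and of 13.1% and 13.7% given above. With control culture 1 left out, 4 rose and 2 fell in MYO5BΔIEC, and 2 rose and 4 fell in MYO5B(G519R), where the median log2 change of the list went from 0.11 to -0.09. The list was mixed. Vil1, its defining marker, rose by 1.08 and 0.90 on the log2 scale in the models (edgeR adjusted p = 0.0038 and 0.00622). Other members, named after their values were seen, went either way. Means in control, MYO5BΔIEC and MYO5B(G519R) were 790, 1330 and 937 CPM for Apoa4. They were 305, 747 and 684 CPM for Alpi and 160, 495 and 397 CPM for Anpep. Apoa4 ranged from 260 to 997 CPM in control, 773 to 2292 CPM in MYO5BΔIEC and 829 to 1128 CPM in MYO5B(G519R). Both models thus overlapped control for Apoa4. The members that follow had lower means in both models. For the fatty acid-binding protein gene Fabp1 the control mean was 2965 CPM, beside 1053 and 1029 CPM. For Fabp2 it was 803 CPM, beside 332 and 293 CPM, and for these genes edgeR adjusted p ran from 0.0569 to 0.0996. For the sucrase gene Sis the control mean was 3250 CPM, beside 2515 and 1604 CPM. Sis fell in MYO5B(G519R) (log2 change -1.10, edgeR adjusted p = 0.0464). Control ranged from 241 to 4285 CPM for Fabp1, 118 to 1266 CPM for Fabp2 and 1319 to 4781 CPM for Sis. Both models lay within the control range for Fabp1 and Fabp2 and overlapped it for Sis. No defining epithelial marker was at 0. Of the 7 proliferation markers 4 fell in MYO5BΔIEC and 3 in MYO5B(G519R), with or without control culture 1, and without it 1 rose in MYO5B(G519R). The part of cell composition in the sterol gene results was not tested, and in bulk RNA fewer cells of a type and less RNA per cell cannot be told apart.

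ABCG5 and ABCG8 pair to form the sterol exporter at the brush border. Abcg8 (ENSMUSG00000024254, chr17:84676302-84700333, + strand) was at 65.8, 97.7, 84.6 and 82.4 CPM in control, and at 139, 96.2, 154 and 127 CPM in MYO5BΔIEC. MYO5B(G519R) cultures had 75.7, 86.5, 115 and 102 CPM. In MYO5BΔIEC 3 of 4 cultures exceeded all controls, and in MYO5B(G519R) 2 of 4 did. Abcg8 rose by 0.59 in MYO5BΔIEC on the log2 scale (SE 0.18, edgeR adjusted p = 0.0324) and had a log2 change of 0.12 in MYO5B(G519R) (edgeR adjusted p = 0.651). That call was lost when control culture 3 or 4 or MYO5BΔIEC culture 1, 3 or 4 was left out, at edgeR adjusted p up to 0.0861.

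Abcg5 (ENSMUSG00000040505, chr17:84658234-84683011, − strand), whose protein works only as a dimer with ABCG8, was at 76.4, 167, 137 and 146 CPM in control. MYO5BΔIEC cultures had 170, 121, 205 and 167 CPM, and MYO5B(G519R) cultures 100, 107, 156 and 133 CPM. The values overlapped in both models, and control culture 1 was the lowest of all 16. The log2 change was 0.28 (95% interval -0.26 to 0.82) in MYO5BΔIEC and -0.17 (-0.70 to 0.36) in MYO5B(G519R). The annotated Abcg5 and Abcg8 genes overlap by 6710 bases on opposite strands, and whether counting used strand is not given in the sources used here, so reads of the pair may not be fully separated.

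Abca1 (ENSMUSG00000015243, chr4:53030787-53159895, − strand), which loads cholesterol onto apolipoprotein A-I, was at 11.01, 8.84, 8.20 and 8.40 CPM in control. It was at 13.1, 15.1, 31.0 and 13.1 CPM in MYO5BΔIEC and at 9.71, 14.999, 19.7 and 4.64 CPM in MYO5B(G519R). All MYO5BΔIEC cultures were above the controls, 1 of them far above, and the MYO5B(G519R) values lay on both sides. Abca1 rose by 0.94 on the log2 scale in MYO5BΔIEC (SE 0.29, edgeR adjusted p = 0.0322), a call lost in 5 of 10 alternatives, including removal of the gene length trend (0.70, edgeR adjusted p = 0.0704), and without control culture 2, 3 or 4 or MYO5BΔIEC culture 2 (edgeR adjusted p up to 0.0874). In MYO5B(G519R) the log2 change was 0.35 (95% interval -0.46 to 1.16).

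Nr1h3 (ENSMUSG00000002108, chr2:91184061-91202834, − strand), which encodes LXRα, was at 11.6, 15.4, 15.1 and 17.8 CPM in control, 11.2, 8.76, 7.07 and 18.2 CPM in MYO5BΔIEC and 8.98, 8.46, 9.04 and 16.01 CPM in MYO5B(G519R). In both models 3 cultures lay below the controls. The remaining culture lay above them in MYO5BΔIEC and among them in MYO5B(G519R). Its log2 changes were -0.46 and -0.58 (edgeR adjusted p = 0.239 and 0.0874), neither past the threshold. It fell in MYO5BΔIEC without MYO5BΔIEC culture 4 (-0.78, edgeR adjusted p = 0.0283). In MYO5B(G519R) it fell without control culture 1 (-0.66, edgeR adjusted p = 0.0257), without MYO5B(G519R) culture 4 (-0.84, edgeR adjusted p = 0.0114) and with the replicate block (-0.61, edgeR adjusted p = 0.0450). Mylip (ENSMUSG00000038175, chr13:45389742-45412022, + strand) was between 0.224 and 0.586 CPM in control, 0.304 and 0.662 in MYO5BΔIEC and 0.0916 and 0.551 CPM in MYO5B(G519R). Those counts are too low for a difference to be detectable, and the 95% interval of the log2 change in MYO5BΔIEC ran from -0.90 to 1.34.

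The 18 synthesis enzymes did not pass in either model with all 4 controls. In MYO5BΔIEC 14 of them had log2 changes below 0 and 4 above, with a median of -0.25 beside -0.01 over all genes tested. In MYO5B(G519R) 10 were below and 8 above 0, with a median of -0.24 beside -0.05. Unadjusted p was under 0.05 for 4 of the 18 enzymes in the first model and 3 in the second, beside 7244 of 17951 and 7030 of 17829 genes tested. DESeq2 called Ebp in the first and Msmo1 and Dhcr7 in the second.

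Msmo1 (ENSMUSG00000031604, chr8:64718139-64733792, − strand), the sterol C4 methyl oxidase, was at 247, 584, 630 and 520 CPM in control. It was at 310, 307, 431 and 195 CPM in MYO5BΔIEC and at 326, 353, 310.5 and 312 CPM in MYO5B(G519R). All 8 mutant cultures lay below control cultures 2 to 4, and 7 of the 8 above control culture 1. Its log2 change of -0.73 in MYO5BΔIEC (SE 0.31) had an edgeR adjusted p of 0.106, and that of -0.69 in MYO5B(G519R) (SE 0.25) one of 0.0684. Values without control culture 1 were -0.95 and -0.89, with edgeR adjusted p at 0.00564 and 0.000113.

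Ebp (ENSMUSG00000031168, chrX:8185329-8193512, − strand), which encodes a sterol isomerase, was described in full after its values were seen. It was at 27.2, 123, 119 and 116 CPM in control, 60.5, 49.7, 43.997 and 46.6 CPM in MYO5BΔIEC and 63.1, 65.0, 53.8 and 85.7 CPM in MYO5B(G519R). The mutant cultures lay between control culture 1 and the other controls without overlap. Its log2 change was -1.001 in MYO5BΔIEC (SE 0.38), where the edgeR adjusted p was 0.0720, and -0.62 in MYO5B(G519R) (SE 0.39), where it was 0.270. Without control culture 1 Ebp fell by 1.31 and by 0.90 on the log2 scale (edgeR adjusted p = 4.2e-05 and 0.00033). In MYO5BΔIEC it passed with DESeq2 on all 4 controls (DESeq2 adjusted p = 0.0259).

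Dhcr7 (ENSMUSG00000058454, chr7:143823145-143848410, + strand), which catalyzes the final reduction to cholesterol, had the highest log2 change of the 18 enzymes in both models. It was at 66.8, 88.7, 109 and 90.5 CPM in control, 123, 110.5, 119 and 76.7 CPM in MYO5BΔIEC and 131, 142, 114 and 119 CPM in MYO5B(G519R). Every MYO5B(G519R) culture was above every control, while 3 of 4 MYO5BΔIEC cultures were. Its log2 change was 0.22 in MYO5BΔIEC (SE 0.19), where the edgeR adjusted p was 0.441, and 0.42 in MYO5B(G519R) (SE 0.16), where it was 0.0688. The second passed without control culture 1 (0.33, edgeR adjusted p = 0.0299).

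**Figure D3:**
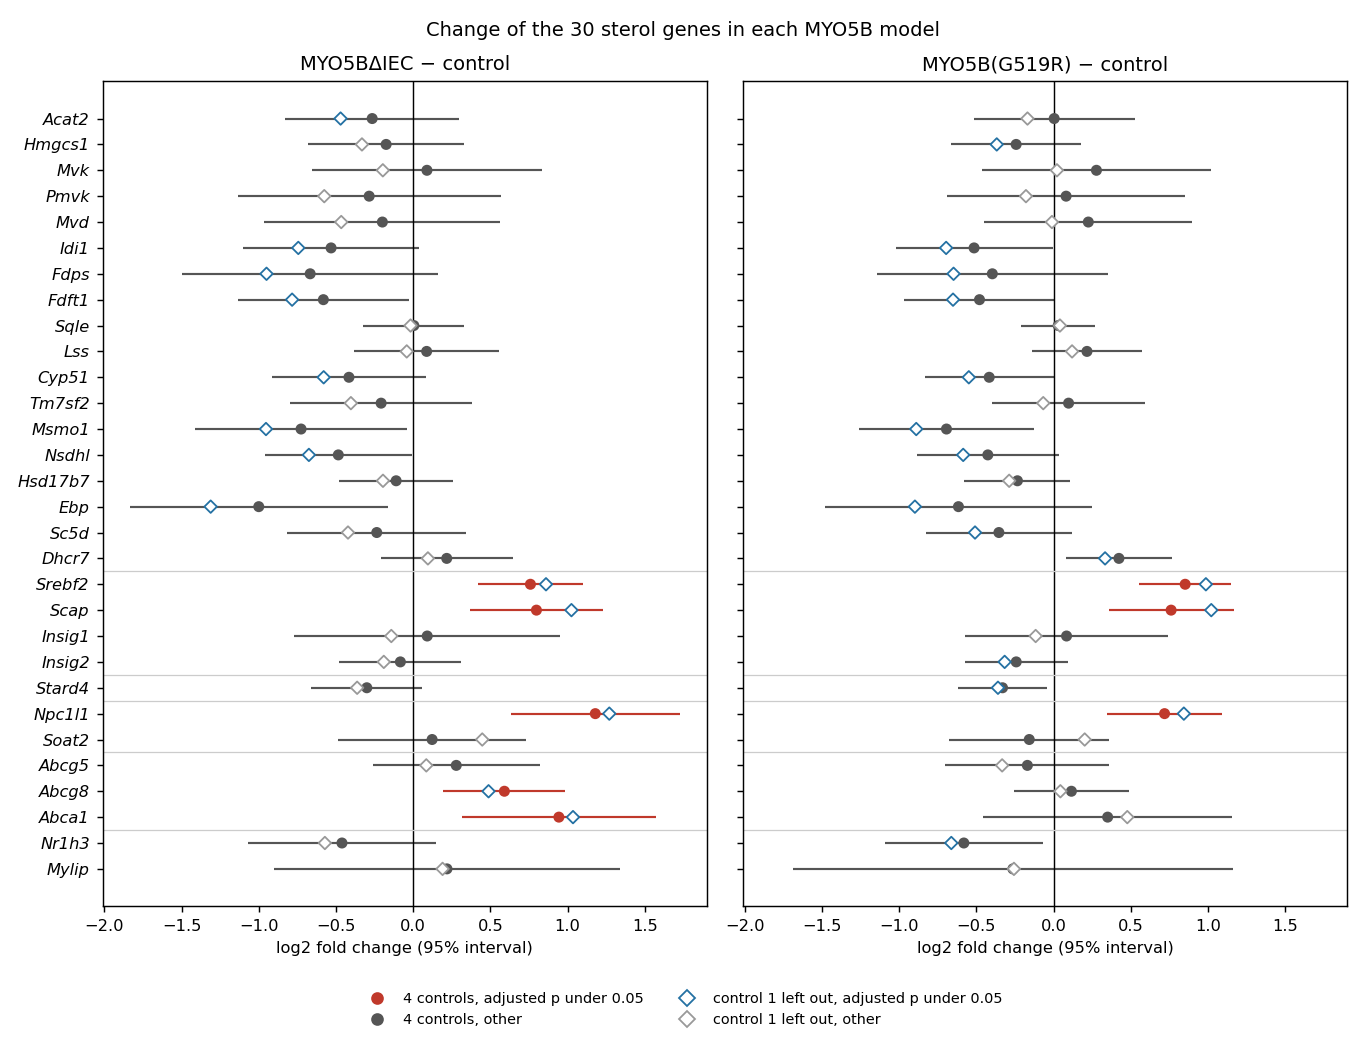
Log2 fold change against control of the 30 genes in pathway order, with 95% intervals from all 4 controls (filled circles, red past adjusted p 0.05) and the value without control culture 1 (diamonds, blue past 0.05). Srebf2, Scap and Npc1l1 are red in both panels, and leaving out control culture 1 moves most enzymes further below 0.

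Without control culture 1, the 8 enzymes that fell in MYO5BΔIEC were Acat2, the first condensing enzyme, Idi1 and Fdps of the isoprenoid steps, Fdft1, which commits isoprenoids to sterols, and Cyp51, Msmo1, Nsdhl and Ebp, which act after lanosterol. Their log2 changes ran from -0.47 for Acat2 to -1.31 for Ebp, and the median over the 18 enzymes was -0.47 beside 0.00 over all genes. In MYO5B(G519R) 9 enzymes fell: Hmgcs1, Idi1, Fdps, Fdft1, Cyp51, Msmo1, Nsdhl, Ebp and Sc5d, with log2 changes from -0.37 for Hmgcs1 to -0.90 for Ebp. Stard4, a sterol carrier that SREBP2 induces, also fell there (-0.36, edgeR adjusted p = 0.0204), as did Insig2 and Nr1h3. Acat2 and Fdps have close copies in the genome, and how reads with several matches were counted is not given in the sources used here, so their values are less certain. Fdft1 overlaps Ctsb by 774 bases and Cyp51 overlaps Akap9 by 166, both on the opposite strand.

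Sqle and Lss, the epoxidase and cyclase between these steps, did not pass with or without that culture. Sqle, the squalene epoxidase that is a flux-controlling step, was at 233, 233, 265 and 223 CPM in control, 265, 234, 286 and 206 in MYO5BΔIEC and 263, 269, 244 and 258 CPM in MYO5B(G519R). The groups overlapped, and control culture 1 was not low for it. Its log2 change was 0.00 (95% interval -0.32 to 0.33) and 0.03 (-0.21 to 0.27). Lss had log2 changes of 0.09 and 0.22, and the remaining enzymes Mvk, Pmvk, Mvd, Tm7sf2 and Hsd17b7 had log2 changes from -0.29 to 0.28 in the models, none past the threshold with or without control culture 1. For Tm7sf2 the annotated gene shares 9356 bases with Vps51 on the same strand, so its counts are uncertain.

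The spread among cultures of a group ran through several genes together. The 3 cultures with the lowest mean log2 CPM over the 18 enzymes were control 1 (6.22), MYO5BΔIEC 4 (6.40) and treated culture 2 (6.42). They were also the 3 lowest for Insig1, at 238, 208 and 212 CPM, and the 3 highest for Soat2, the enzyme that esterifies cholesterol for storage and lipoproteins, at 106, 96.5 and 120 CPM. Soat2 was at 45.8 to 84.2 CPM in the other cultures, and its log2 changes of 0.12 and -0.16 in the models did not pass. The shared order did not hold among the remaining cultures. MYO5BΔIEC culture 3 ranked 8 from the lowest for the enzymes but was the highest of the 16 for Insig1. Control culture 3 was the highest for the enzymes but ranked 10 from the lowest for Insig1. These are values over 16 cultures that share controls and depth, given as a description, and the cultures were not grouped by them in any test.

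Compound-1 moved no sterol gene past the threshold. In treated against vehicle MYO5BΔIEC cultures, none of the 30 genes was called, and none of the 18037 genes tested (0.0%), with edgeR, while 1355 of those genes and 1 of the 30, Abca1, had an unadjusted p under 0.05 and DESeq2 called 51 genes higher and 49 lower, none of the 30 among them. Abca1 was at 11.9, 12.2, 13.8 and 6.95 CPM with Compound-1 and at 13.1, 15.1, 31.0 and 13.1 CPM with vehicle. Treated values lay mostly below the vehicle values, with an overlap through the highest treated culture. Its log2 change was -0.72 (95% interval -1.42 to -0.03, edgeR adjusted p = 0.659).

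Npc1l1 was at 236, 121, 160 and 185 CPM with Compound-1. These overlapped the vehicle values, and the log2 change was -0.48 (95% interval -1.07 to 0.12, edgeR adjusted p = 0.765). Srebf2 was at 374, 312, 418 and 458 CPM with Compound-1 and Scap at 58.9, 79.6, 84.0 and 80.5 CPM. Both were interleaved with the vehicle cultures, with log2 changes of 0.07 (-0.27 to 0.40) and 0.07 (-0.25 to 0.40). Of the 18 enzymes 13 had log2 changes below 0 and 5 above, with a median of -0.13 beside 0.00 over all genes, and none passed even unadjusted. Intervals this wide leave room for changes of moderate size in either direction.

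Against control, the treated cultures had 4 genes higher, Srebf2, Scap, Npc1l1 and Abcg8, and 2 lower, Msmo1 and Stard4, beside 15.7% higher and 13.7% lower among all 17937 genes. Stard4 was at 349, 277, 208 and 287 CPM after treatment and at 369, 453, 433 and 411 CPM in control. Every treated culture lay below every control, and the gene fell by 0.63 on the log2 scale (SE 0.18, edgeR adjusted p = 0.0264). The direct comparison with vehicle gave -0.35 for Stard4 (95% interval -0.76 to 0.06, edgeR adjusted p = 0.735), so a difference between treated and vehicle cultures was not shown. The falls of Msmo1 (-0.90, edgeR adjusted p = 0.0481) and Stard4 were lost in 6 and 5 of the 8 leave-out fits, both without control culture 2, 3 or 4 or treated culture 3 or 4, and Msmo1 also without treated culture 2 (edgeR adjusted p up to 0.130). The rise of Npc1l1 there was lost without control culture 2, 3 or 4 or treated culture 1, 3 or 4, and that of Abcg8 without control culture 3 or 4 or treated culture 3 or 4. Without control culture 1, 4 genes rose and 12 fell, beside 22.9% and 19.2%, and 11 of the 12 were enzymes.

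MYO5B(G519R) was also set directly against MYO5BΔIEC. None of the 30 genes passed, and 1 of all 17943 genes did (0.00557%). Abcg8 (-0.47), Abcg5 (-0.44) and Ebp (0.39) were the sterol genes whose unadjusted edgeR p was under 0.05, and for each the edgeR adjusted p was 0.838, and DESeq2 called none of the 30. The 3 efflux genes, Abca1 included, had values below 0, and 15 of the 18 enzymes had values above 0 with a median of 0.12 beside -0.01 over all genes.

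**Figure D4:**
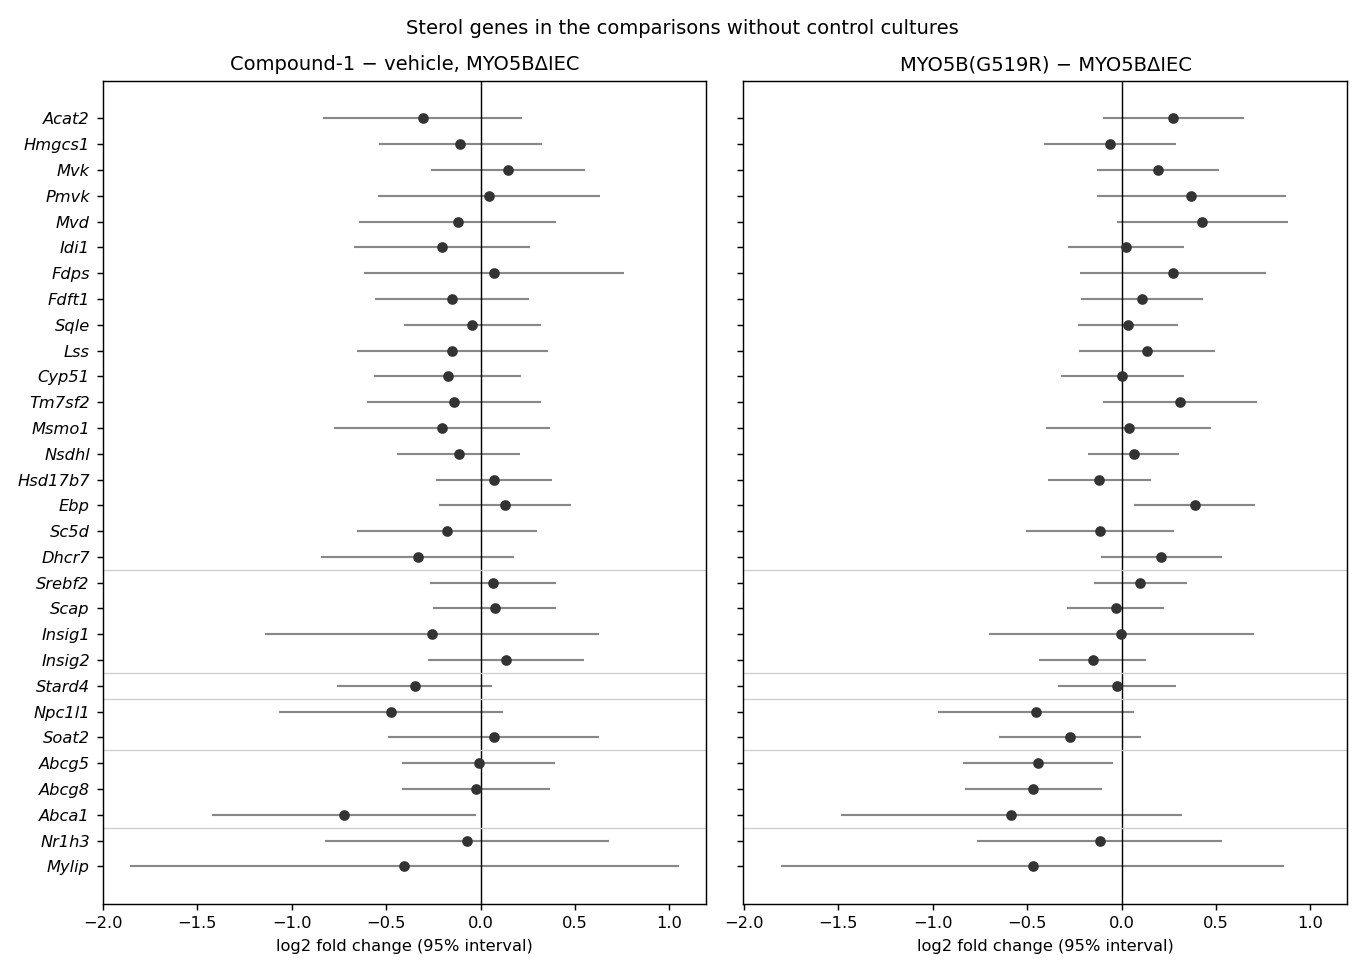
Log2 fold change with 95% interval of the 30 genes for Compound-1 against vehicle in MYO5BΔIEC (left) and for MYO5B(G519R) against MYO5BΔIEC (right). No gene passed adjusted p 0.05 in either panel, and most intervals include 0, with Abca1 on the left and Abcg5, Abcg8 and Ebp on the right as exceptions.

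Other genes of the pathway were taken from 3 lists. Of 20 tested genes of the SREBP2 system and of sterol synthesis outside the 30, 4 rose and 3 fell in MYO5BΔIEC, and 6 rose and 4 fell in MYO5B(G519R), with medians of 0.07 and 0.10 on the log2 scale beside -0.01 and -0.05 over all genes. With 3 controls, culture 1 left out, 7 rose and 4 fell in MYO5BΔIEC, and 9 rose and 5 fell in MYO5B(G519R). The backgrounds for these and the following lists are those of the 2 comparisons, 13.5% higher and 13.8% lower in MYO5BΔIEC and 13.1% and 13.7% in MYO5B(G519R) with all controls, and 21.2% and 20.8%, and 24.0% and 22.1%, without control culture 1. Osbp, an oxysterol-binding exchanger of cholesterol between membranes, rose by 0.71 and 0.62, and Rnf145, a ubiquitin ligase that acts on SCAP, rose by 0.67 and 0.83 (edgeR adjusted p from 0.00204 to 0.00825). Erlin1, which restrains SREBP activation, and Ggps1, which makes geranylgeranyl diphosphate, fell in both. Log2 changes were -0.72 and -0.90 for Erlin1 and -0.53 and -0.47 for Ggps1. The directions within this list were thus mixed. Erlin1 ranged from 74.8 to 136 CPM in control, 43.3 to 75.4 CPM in MYO5BΔIEC and 46.4 to 58.0 CPM in MYO5B(G519R). Its control mean was 91.2 CPM, and with controls this spread the size of its fall is uncertain.

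Among the 11 tested genes of the LXR target and efflux list outside the 30, 5 rose and none fell in MYO5BΔIEC. In MYO5B(G519R) 4 rose and none fell. The median log2 changes were 0.26 and 0.46, beside -0.01 and -0.05 over all genes. Leaving out control culture 1 gave 5 higher and 1 lower in MYO5BΔIEC, and 4 higher and 1 lower in MYO5B(G519R). The 4 that rose in both were Srebf1, Rxra, Abca7 and Myo1c. Log2 changes were 0.64 and 0.72 for Srebf1, the lipogenic SREBP, and 0.74 and 0.63 for Rxra, the partner receptor of LXR. They were 1.24 and 1.21 for Abca7 and 1.35 and 1.30 for Myo1c. The other genes of the list did not pass in both models. Among them, means in control, MYO5BΔIEC and MYO5B(G519R) were 583, 594 and 536 CPM for Scd1 and 222, 271 and 254 CPM for Lpcat3. Abcg1 was at most 0.423 CPM in any culture of these 3 groups. Control of these genes by LXR was not tested, and the list is not a measure of LXR activity. Of 20 tested genes of intracellular sterol transport, storage and lipoproteins, 5 rose and 2 fell in MYO5BΔIEC, and 1 rose and 2 fell in MYO5B(G519R). These counts became 6 higher and 4 lower in the first model without control culture 1, and 4 in each direction in the second. Lrp1, a large endocytic receptor, rose by 1.80 and 1.55, and Cd36, a fatty acid and lipoprotein scavenger receptor, fell, with log2 changes of -1.63 and -2.10. Npc1, which moves cholesterol out of lysosomes, rose in MYO5BΔIEC by 0.89 (edgeR adjusted p = 0.0361). Its log2 change in MYO5B(G519R) was 0.61 (edgeR adjusted p = 0.138). Npc1 ranged from 12.1 to 32.3 CPM in control, with a mean of 18.2 CPM. The ranges were 31.0 to 38.4 CPM in MYO5BΔIEC and 26.4 to 35.4 CPM in MYO5B(G519R). The mutants overlapped each other, so these results do not show a difference between the models.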

How the data were processed

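Libraries of poly(A) RNA from 16 enteroid cultures were sequenced. Per the methods and the submitters' processing notes, the authors aligned reads to GRCm38 with STAR 2.5 and counted them per gene with HTSeq 0.6.1. The deposited counts are raw counts per gene. The deposited FPKM values divide the counts by gene length and library size, and were used here only to compare levels between genes and in 2 alternatives. Groups came from the sample labels.

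Counts were fitted in R 4.3.3 with edgeR 4.0.16, for each pair of groups, with TMM scaling, a filter that kept genes reaching 10 counts in 2 or more of the 8 libraries, the quasi-likelihood F test, Benjamini-Hochberg adjustment over all genes and a threshold of 0.05. SEs were the log2 change over the root of F. Promoter sequences are from RefSeq. The scripts were tested on simulated counts. The alternatives were DESeq2 1.42.0, its size factors, filterByExpr, no filter, all 4 groups in 1 fit, a replicate block, mitochondrial genes left out of library sizes, the gene length trend removed, limma 3.58.1 on log2(FPKM + 1) and log2(FPKM + 0.1), and each culture left out.

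The members, lists and tests were chosen with earlier results of these data known. All 30 genes are named by role. Values in every culture are given for called genes, for the main regulators and transporters, and for the 2 enzymes nearest the threshold. Of the other lists, genes past the threshold in both models are named, and some are not reported here by name. P-values set the difference between groups against the spread between cultures.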

Additional observations from a re-analysis of the deposited data

Results flagged for a closer look

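Within each group of 4 cultures, a value was marked when its gap to the nearest other culture, over the range of the group, passed the critical value of Dixon's test at the 95% level. Of 120 groups, 30 genes in 4 groups of cultures, 15 were marked. Chance marks about 1 in 20, and the genes are not independent of each other.

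Control culture 1 gave 5 of the 15. It was low for the mevalonate pathway genes Mvk (15.02 CPM, others from 51.6), Pmvk (23.7 CPM, others from 83.1) and Mvd (38.3 CPM, others from 107) and for Ebp (27.2 CPM, others from 116), and high for Scap (57.5 CPM, others up to 34.1).

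Among MYO5BΔIEC cultures, culture 4 was low for Acat2 (116 CPM) and Lss (115 CPM), and culture 3 was high for Abca1 (31.0 CPM, others up to 15.1). Among MYO5B(G519R) cultures, culture 3 was low for Acat2 (159 CPM) and Mvd (99.3 CPM) and high for Hmgcs1 (466 CPM), and culture 4 was high for Mvk (66.7 CPM) and Nr1h3 (16.01 CPM) and low for Sc5d (134 CPM). Compound-1-treated culture 2 was low for Insig2 (26.9 CPM, others from 43.4). Why these cultures differed was not tested.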

How the results depend on the processing

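Across the alternatives no sterol gene reversed a called direction. Genes higher in MYO5BΔIEC (5) became 3 with the replicate block, and ranged from 3 to 5 with 1 culture left out. Genes lower (0) became 1 with DESeq2, 1 with no filter and 2 with all 4 groups in 1 fit, and ranged from 0 to 8, the 8 without control culture 1. Genes higher in MYO5B(G519R) (3) ranged from 3 to 4, and genes lower (0) became 1 with DESeq2, 1 with the replicate block and 2 with the gene length trend removed, and ranged from 0 to 12. In Compound-1-treated cultures against control, genes higher (4) ranged from 2 to 4. Genes lower (2) became 7 with all 4 groups in 1 fit, 0 with the replicate block, 4 with the length trend removed and 1 with limma on either FPKM scale, and ranged from 0 to 12. Against vehicle, and between the mutants, the counts of 0 stayed at 0. Same-numbered cultures had correlated deviations of -0.18 to 0.35. No comparison had all 4 over 0.1, so the numbers were not taken as pairs, although between the mutants cultures 3 and 4 were at 0.24 and 0.35. Abcg8 and Abca1 in MYO5BΔIEC were lost under the replicate block. Mylip, under 1 CPM in every culture, was too low to resolve. The cause of these shifts was not tested. Leaving out control culture 1 also raised the calls over all genes.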
